A study of Mus musculus with 15 samples.

Results

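Invariant natural killer T (iNKT) cells sorted from the mesenteric lymph nodes (mLN) were compared with iNKT cells sorted from the spleen of wild-type C57BL/6 mice. The comparison was between the 8 libraries labelled with these tissues, 4 from mLN and 4 from spleen. The fit behind its p-values used all 15 RNAseq libraries of the series, with those of thymus and inguinal lymph node included. Mice were 6 weeks old and untreated, and cells were sorted as TCRβ+ CD1d-tet-PBS57+ and negative for B220, CD11b, CD11c and CD8. Replicates 1 and 2 of each tissue were in the batch labelled Second and replicates 3 and 4 in the batch labelled First, and whether a replicate was 1 mouse or a pool is not given, so p-values measure the spread between these samples. The lymph nodes were digested with collagenase, DNAse and NADase before sorting, and the spleens were pressed through a strainer. Tissue dissociation and tissue of origin therefore cannot be told apart in this comparison.

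iNKT cells carry a nearly invariant TCRα chain that recognises glycolipids presented by CD1d. According to the study, CCR7+ precursors leave the thymus and mature further after they reach other tissues. iNKT cells are divided into NKT1, NKT2 and NKT17 cells. NKT1 cells use the factor T-bet and resemble natural killer cells, NKT2 cells are high in PLZF and make IL-4, and NKT17 cells make IL-17. The mLN drain the gut and are entered from the blood through high endothelial venules, while the spleen filters the blood itself, and cells in both are guided by chemokine receptors and integrins.

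Expression is given as normalized CPM, counts scaled to library size after TMM normalization, and means are given ± SD (n = 4 per tissue). Total counts lay between 4740370 and 7914302 in mLN and between 4919511 and 8670570 in spleen. Genes resembling nuclear ribosomal RNA took 6.47% to 14.62% of the counts in mLN and 5.10% to 34.57% in spleen, where replicate 3 was highest. Spleen replicate 1 stood apart through 9 predicted genes, described at the end, and through B cell markers. All 14 genes of a list of iNKT identity genes were detected in both tissues, with a summed level of 4379 to 4555 CPM in mLN and 2997 to 4094 CPM in spleen. The gene of PLZF, Zbtb16, was at 198 ± 21.7 CPM in mLN and 137 ± 41.6 in spleen, and Cd3e, a chain of the TCR complex, at 1346 ± 133 and 1098 ± 161. Neither passed the test (edgeR adjusted p = 0.215 and 0.309). Of the 14 genes, Slamf6 alone was called, and the median log2 fold change of the list was 0.21.

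Of 13600 genes tested, 89 were called different between mLN and spleen (0.654%), with 62 higher in mLN (0.456%) and 27 lower (0.199%). A gene was called when, in the fit of all 15 libraries, its edgeR adjusted p was below 0.01 and its fold change above 1.5. The median log2 fold change over all genes tested was 0.000304. Among the genes called higher it was 1.48 and among those called lower −1.38, and 18 genes rose and 7 fell by 4-fold or more. Every mLN library was above every spleen library for 60 of the 62, with the exceptions of Tmem64 and Gm20186, and below for all 27 of the others. Over all genes tested, such a separation was seen upward for 3.04% and downward for 3.15%. With the mLN and spleen libraries alone 17 genes were called, of which 16 were among the 89. In the fit of all 15 libraries, the number called depended on each library. It was 59, 49, 24 and 32 without mLN replicates 1, 2, 3 and 4 and 33, 32, 28 and 25 without spleen replicates 1, 2, 3 and 4. All 89 genes kept their direction in these 8 fits, and 18 were called in each of them. These 18 were Ccr8, St8sia1, St8sia6, Ephx1, Rgs10, Igfbp4, Nrp1, Itga4, Izumo1r, F2rl1, Nt5e, Phactr2, Skil, Tcf7 and Scd2, which were higher in mLN, and Pde7a, Klrk1 and Hbb-bs, which were lower. A further 16 genes were called in none of the 8 fits. Of those, Ifngr2, Cerkl, Dtx4, Tmem64, Gm20186, Gm26809, Ssh2, Ttc3 and Rcc2 were higher in mLN. Gbp4, Lyst, Peak1, Zfp683, Ttn, Hbb-bt and Hba-a2 were lower.

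**Figure D1:**
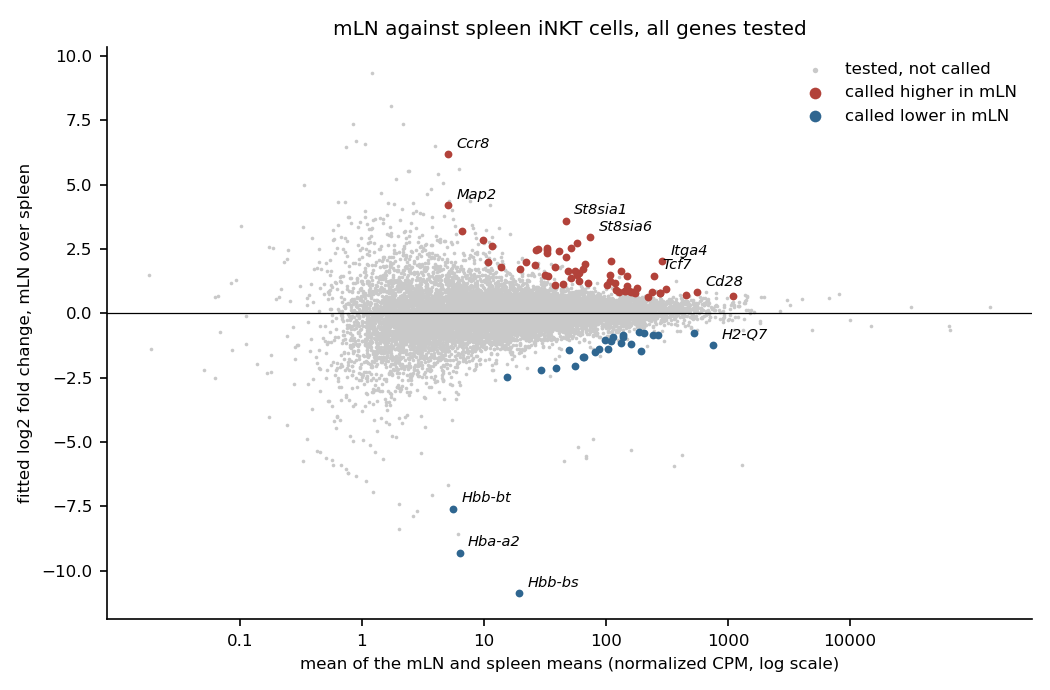
Fitted log2 fold change of mLN over spleen (vertical axis) against the mean of the mLN and spleen means in normalized CPM (horizontal log axis) for the genes tested, except 5 at 0 in all mLN and spleen libraries; red and blue points are the 62 genes called higher and the 27 called lower in mLN. The called genes run from Ccr8 at 6.17 down to the globin gene Hbb-bs at −10.87; grey points as far out are low genes or genes read in few libraries.

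By number, receptors that guide migration were the list with most genes called higher in mLN. Of 21 chemokine and related receptors tested, 4 rose and none fell by the test, with a list median of 0.35. The lists differ in size, and by share the NKT2 list (3 of 10) and the lymphoid homing and memory list (3 of 14) were higher. Ccr4 is also on the NKT2 list and Ccr7 on the lymphoid homing and memory list. Over all genes tested, 0.456% were called higher. Ccr8, a receptor for CCL1, was at 15.9, 6.24, 12.5 and 5.59 CPM in mLN replicates 1 to 4. In spleen it was at 0.0987, 0, 0 and 0.407 CPM, so that the groups lay far apart and the spleen libraries together held 3 counts against 255 in mLN. The ratio of the pooled levels was 88.8 with a 95% exact interval, for counting error only, of 30.1 to 434. The fitted log2 fold change was 6.17 (SE 0.80, edgeR adjusted p = 0.000455) and between 5.74 and 7.19 with 1 library left out. Ccr7, which binds CCL19 and CCL21 and brings lymphocytes into lymph nodes, was at 19.97, 48.6, 56.6 and 55.3 CPM in mLN and 13.3, 5.86, 5.73 and 8.34 in spleen. The lowest mLN library, replicate 1, was above the highest spleen library by a small margin. Its fold change was 5.49 (log2 2.46, SE 0.46, edgeR adjusted p = 0.00749), and the replicate block took it past the threshold, to an adjusted p of 0.01025.

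Ccr4, a receptor for CCL17 and CCL22 found on type 2 T cells, was at 181, 189, 159 and 104 CPM in mLN and at 34.4, 75.1, 55.3 and 59.6 in spleen (log2 fold change 1.47, SE 0.24, edgeR adjusted p = 0.00331). The oxysterol receptor gene Gpr183 rose from 18.2 ± 4.38 to 49.1 ± 10.9 CPM (log2 fold change 1.43, SE 0.24, edgeR adjusted p = 0.00464). Per transcript length, Ccr4 was the most abundant of the 4 in mLN with a mean of 79.0 TPM, against 33.02 for Ccr7, 23.3 for Gpr183 and 13.4 for Ccr8. Ccr9, which binds the gut chemokine CCL25, was at 336 ± 103 CPM in mLN and 178 ± 36.3 in spleen without overlap, but was not called (edgeR adjusted p = 0.0282). The NKT1-associated receptor gene Cxcr6 was at 429 ± 150 CPM in mLN and 679 ± 219 in spleen (edgeR adjusted p = 0.12), and Ccr2 at 156 ± 31.6 and 224 ± 40.7 (edgeR adjusted p = 0.0883).

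Among 22 genes of gut homing and tissue residency, Itga4 rose and Zfp683 fell, with a list median of 0.13. The shares of all genes tested were 0.456% called higher and 0.199% called lower. Itga4, the α4 integrin chain that pairs with β7 or β1, was at 653, 445, 407 and 327 CPM in mLN and at 190.1, 136, 78.7 and 66.5 in spleen. In both tissues the libraries of the Second batch were above those of the First, and within each batch mLN was above spleen. Its log2 fold change was 2.03 (SE 0.21, edgeR adjusted p = 0.000102). The β7 chain gene Itgb7 was at 111 ± 47.3 CPM in mLN and 99.45 ± 21.6 in spleen (edgeR adjusted p = 0.895), and the αE chain gene Itgae at 13.98 ± 12.02 and 4.44 ± 2.77 (edgeR adjusted p = 0.142). Itga4 (chromosome 2 of GRCm38, 79255426 to 79333123, plus strand) shares 2581 bases with the called gene Cerkl (79330543 to 79456785, minus strand), a homologue of ceramide kinase. Cerkl was at 62.4, 45.3, 42.03 and 38.3 CPM in mLN and 16.1, 6.31, 4.24 and 7.53 in spleen (log2 fold change 2.49, SE 0.48, edgeR adjusted p = 0.0097). Reads from the shared bases cannot be assigned to either gene without strand. Zfp683, which encodes the residency factor Hobit, was at 57.7, 54.3, 90.7 and 81.1 CPM in mLN and 126, 128, 148 and 189 in spleen (log2 fold change −1.08, SE 0.21, edgeR adjusted p = 0.0096, and 0.01678 with the replicate block).

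Tcf7 and Tox, which encode T cell transcription factors, were higher in mLN. Of 14 genes of lymphoid homing and memory, 3 rose (Tcf7, Tox and Ccr7) and 11 were not called. In this list 6 were separated upward, against 3.04% of all genes tested, of which 0.456% were called higher. A log2 fold change above 0 was seen for 13, with a list median of 0.50. Tcf7, which encodes TCF-1, was at 305, 384, 456 and 303 CPM in mLN and at 123, 100.8, 162 and 145 in spleen. The lowest mLN library, replicate 4, lay far above the highest spleen library, replicate 3. The log2 fold change was 1.47 (SE 0.18, edgeR adjusted p = 0.000181). Tox, a chromatin factor of T cell development, was at 125, 59.6, 84.5 and 73.0 CPM in mLN and at 26.3, 28.6, 37.9 and 29.9 in spleen (log2 fold change 1.47, SE 0.25, edgeR adjusted p = 0.0048). The partner of TCF-1, Lef1, was at 239.5 ± 18.5 and 153.5 ± 28.8 CPM (edgeR adjusted p = 0.0732). Id3, an inhibitor of E proteins, was at 15.2 ± 9.38 and 2.02 ± 1.38 CPM (edgeR adjusted p = 0.0398).

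**Figure D2:**
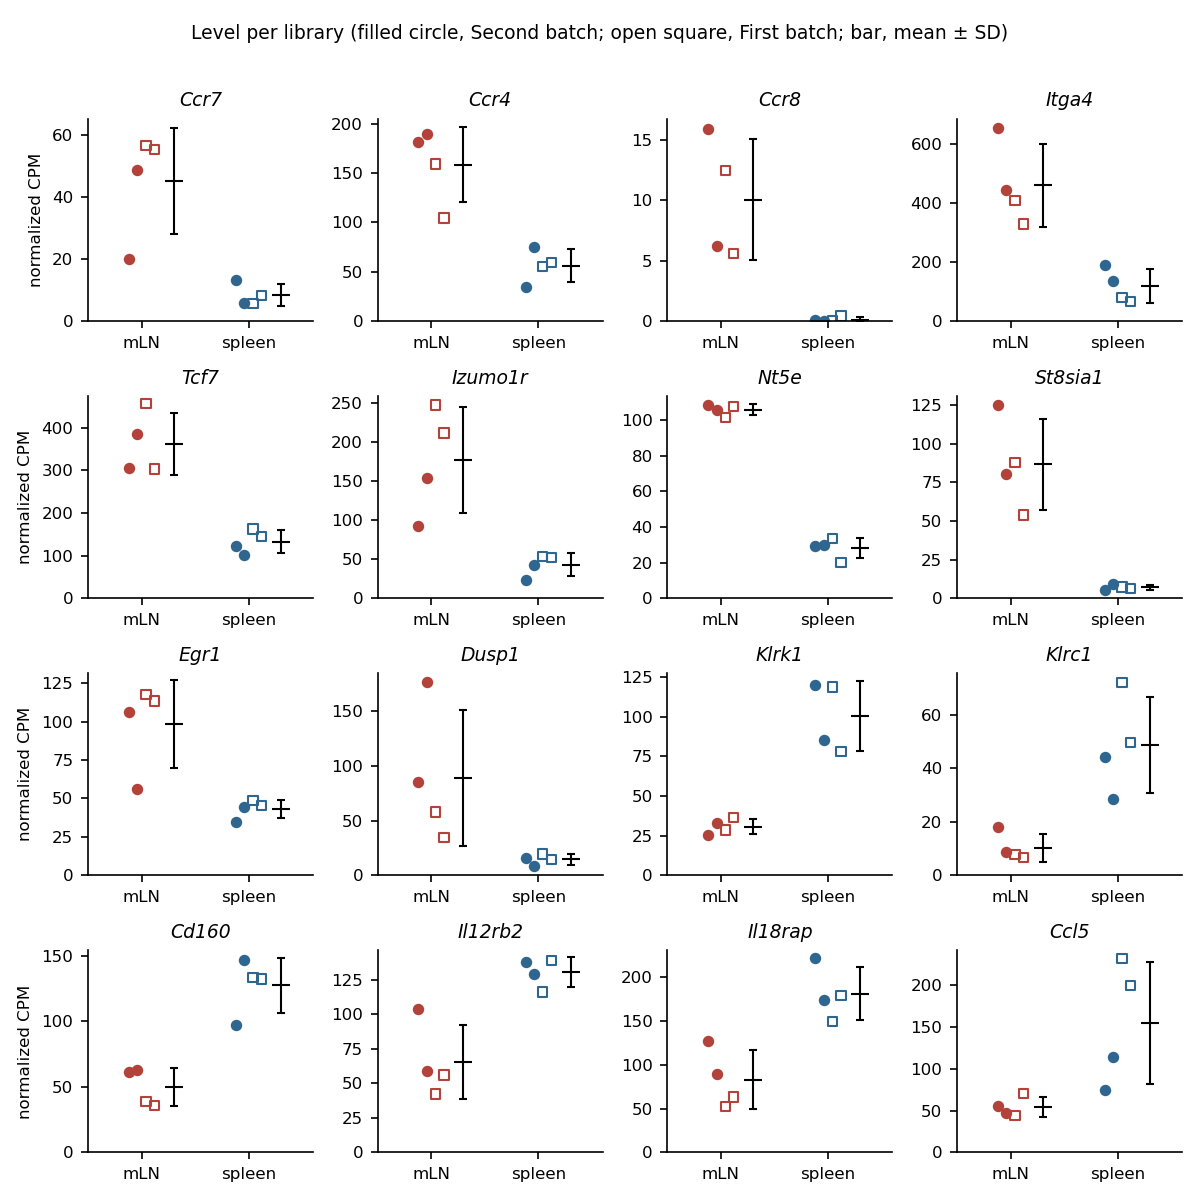
Normalized CPM (vertical axes, from 0) of 16 genes in the 4 mLN and 4 spleen libraries, with filled circles for the Second batch, open squares for the First batch and black bars for mean ± SD. In every panel the mLN libraries lie on 1 side of the spleen libraries, and the gap is smallest for Ccl5, where mLN reaches 70.9 and spleen starts at 74.8 CPM.

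Lists of iNKT subset genes, chosen with earlier results of these data known, had medians on opposite sides of 0. Over all genes tested, 0.456% were called higher and 0.199% lower. Of 10 NKT2 genes tested, 3 rose (Izumo1r, Ccr4 and Slamf6) and none fell, with a list median of 1.30. Of 17 NKT17 genes, 2 rose (Sdc1 and Il1r1), with a median of 0.76. Of 14 NKT1 genes, 2 fell (Ccl5 and Klrb1c), with a median of −0.69 and every log2 fold change below 0, between −1.40 and −0.30. In these bulk samples, fewer cells of a subset and less RNA per cell cannot be told apart. The factor genes Tbx21 and Gata3 were not called. Tbx21 (T-bet) was at 43.8 ± 25.1 CPM in mLN and 73.2 ± 43.03 in spleen (edgeR adjusted p = 0.277) and Gata3 at 75.7 ± 8.94 and 94.1 ± 12.9 (edgeR adjusted p = 0.617).

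Izumo1r encodes folate receptor 4, a surface marker of some helper and regulatory T cells. It was at 92.6, 154, 247 and 211 CPM in mLN and at 22.8, 42.98, 53.6 and 52.5 in spleen, 4.04-fold higher in mLN (log2 2.01, SE 0.22, edgeR adjusted p = 0.000102). Slamf6, a SLAM receptor needed for iNKT cell selection, was at 276, 295, 171 and 130 CPM in mLN and at 118, 64.0, 57.8 and 68.3 in spleen (log2 fold change 1.45, SE 0.23, edgeR adjusted p = 0.00331). The lowest mLN value, in replicate 4, lay close to the highest spleen value, in replicate 1. Slamf7, a neighbour of Slamf6 on chromosome 1 (171632403 to 171653035 against 171917515 to 171953170), went the other way, from 239, 376, 259.6 and 270.3 CPM in spleen to 163, 102, 55.3 and 95.7 in mLN. Its log2 fold change was −1.48 (SE 0.27, edgeR adjusted p = 0.00654). Il6ra was separated upward at 41.2 ± 14.7 against 17.6 ± 3.39 CPM without being called (edgeR adjusted p = 0.0651), and the level of Il4 was 6.64 ± 2.85 and 6.70 ± 1.38 CPM (edgeR adjusted p = 0.989).

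Sdc1, which encodes syndecan-1 and marks NKT17 cells and plasma cells, was at 8.95, 16.4, 13.7 and 8.48 CPM in mLN and at 1.58, 0.451, 1.74 and 1.63 in spleen (log2 fold change 3.19, SE 0.53, edgeR adjusted p = 0.00372). The 7 plasma cell markers summed to 1.16 to 31.3 CPM in mLN and 2.03 to 92.9 in spleen, and their part in this result was not tested. Il1r1, the IL-1 receptor of type 17 cells, was at 28.8, 13.9, 10.2 and 26.97 CPM in mLN and at 2.57, 5.26, 2.99 and 2.44 in spleen (log2 fold change 2.61, SE 0.47, edgeR adjusted p = 0.0066, and 0.01052 with the replicate block). Il23r was at 9.36 ± 6.88 CPM in mLN and 1.53 ± 2.10 in spleen, with mLN replicate 1 at 0.908 inside the spleen range (edgeR adjusted p = 0.154). Serpinb1a was separated upward at 9.56 ± 3.24 against 1.90 ± 1.52 CPM (edgeR adjusted p = 0.0889).

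A sialyltransferase gave the smallest adjusted p of all genes tested. St8sia1, the GD3 synthase that adds a second sialic acid to a ganglioside, was at 125, 80.1, 87.6 and 53.7 CPM in mLN and at 5.53, 9.32, 7.23 and 6.30 in spleen. The groups lay far apart, with the lowest mLN library at 53.7 and the highest spleen library at 9.32 CPM, and the fold change was 12.1 (log2 3.60, SE 0.31, edgeR adjusted p = 1.03e-05). St8sia6, an α2,8-sialyltransferase that acts on O-glycans, was at 172, 168, 115 and 72.0 CPM in mLN and at 19.4, 35.01, 8.22 and 8.54 in spleen, a fold change of 7.78 (log2 2.96, SE 0.34, edgeR adjusted p = 0.000102). Of 14 glycosylation genes tested these 2 rose, none fell, and the list median was 0.52. The share called higher was 0.456% of all genes tested. St3gal1 was separated upward at 106 ± 22.3 against 53.5 ± 5.81 CPM (edgeR adjusted p = 0.0404), and St6gal1 was at 58.4 ± 19.5 and 30.5 ± 3.53 (edgeR adjusted p = 0.0327).

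Genes induced within minutes by the TCR and other stimuli were examined as 3 lists, chosen with earlier results of these data known. Of the AP-1 family, 10 were tested and none was called, while 5 were separated upward (Fos, Fosb, Junb, Fosl2 and Maff) and the median was 1.56. Of 7 Egr and Nr4a factors Egr1 rose, 3 were separated upward and all 7 log2 fold changes were above 0, with a median of 1.17. Of 36 immediate early and feedback genes, Dusp1 and Rgs2 rose, 3 were separated upward, and the median was 0.48. Over all genes tested, 3.04% were separated upward and 0.456% were called higher. The enzymatic digestion was used for mLN and not for spleen, and immediate early genes are also known to rise during such a digestion. A list of heat shock and dissociation genes, of which 15 were tested, had a median of 0.48 with 14 above 0 and none called. Fos and Jun are also on that list. Its smallest adjusted p was that of Hsp90ab1, at 999 ± 209 CPM in mLN and 581 ± 94.7 in spleen (log2 fold change 0.79, SE 0.15, edgeR adjusted p = 0.01045), while Hspd1 was at 131.5 ± 28.5 and 93.8 ± 16.4 (edgeR adjusted p = 0.249). Dissociation and tissue cannot be told apart for any of these genes.

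Egr1 was at 106, 56.4, 118 and 113 CPM in mLN and at 34.6, 44.5, 48.6 and 45.4 in spleen, with mLN replicate 2 lowest in its tissue (log2 fold change 1.17, SE 0.21, edgeR adjusted p = 0.00538). Dusp1, a phosphatase that switches off MAP kinases, was at 85.7, 177, 57.8 and 34.7 CPM in mLN and at 15.8, 8.27, 19.4 and 14.4 in spleen. The mLN libraries were widely spread, and both of the Second batch were above both of the First. The log2 fold change was 2.53 (SE 0.49, edgeR adjusted p = 0.00956, and 0.01488 with the replicate block), and it was 1.43 in the First and 3.43 in the Second batch taken alone. Rgs2, which shortens signalling through G proteins, was at 113, 90.4, 68.2 and 70.5 CPM in mLN and at 34.1, 44.9, 35.9 and 27.5 in spleen (log2 fold change 1.26, SE 0.20, edgeR adjusted p = 0.00331). Fos was at 9.98, 16.5, 4.99 and 4.62 CPM in mLN, and in spleen it had counts in replicate 1 alone, at 0.888 CPM. Its edgeR adjusted p of 0.0123 became 0.009377 with the replicate block, which called it. Nr4a1, which encodes Nur77 and follows TCR signals, was at 38.9, 11.3, 35.6 and 29.7 CPM in mLN and at 2.17, 0.451, 4.24 and 7.93 in spleen (log2 fold change 3.08, edgeR adjusted p = 0.0113). Junb was at 54.6 ± 13.5 and 16.3 ± 8.27 CPM (edgeR adjusted p = 0.0384), Fosb at 14.6 ± 8.03 and 1.35 ± 2.03 (edgeR adjusted p = 0.0807), and Jun at 16.3 ± 16.9 and 4.18 ± 1.81 with mLN replicate 2 at 41.4 (edgeR adjusted p = 0.281). Egr2 was separated upward at 46.7 ± 12.8 against 15.4 ± 6.69 CPM (edgeR adjusted p = 0.0761), and Egr3 was at 14.5 ± 8.98 and 3.01 ± 2.85 (edgeR adjusted p = 0.0433). Crem, an inducible repressor at cAMP response elements, was at 17.7 ± 14.5 and 3.94 ± 2.25 CPM (edgeR adjusted p = 0.0792).

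Promoter windows of these genes, from 250 bases before to 50 bases after each start site, were read from RefSeq (GRCm38.p6) for 13 of the 14 listed AP-1 genes, 7 of 9 Egr and Nr4a genes and 26 of 37 immediate early and feedback genes. Egr1, the called gene of the Egr and Nr4a list, was without a window. The cAMP response element TGACGTCA stood on either strand in 1 of the 13, 0 of the 7 and 4 of the 26 genes, against 2.03% of 27025 genes with a window. The AP-1 letters TGACTCA stood in 0, 0 and 2 of them, against 5.95%. The Egr letters GCGTGGGCG stood in 1, 1 and 0 (0.707% of all genes), the forkhead letters TGTTTAC in 1, 0 and 0 (4.05%), and the CArG box of serum response factor in 0, 1 and 2 (1.81%). The Dusp1 and Egr2 windows each held 1 match, which overlapped no other motif. The windows of the called genes Dusp1 and Rgs2 and of Egr2 are printed because they hold a cAMP response element, none of the 5 motifs and a CArG box, with the matching letters in capitals. The Dusp1 match starts 143 bases and the Egr2 match 72 bases before the start site. The windows lie at chr17:26508423-26508722 (minus strand), chr1:144004100-144004399 (minus strand) and chr10:67537316-67537615 (plus strand), and a match is no evidence of binding.
Dusp1: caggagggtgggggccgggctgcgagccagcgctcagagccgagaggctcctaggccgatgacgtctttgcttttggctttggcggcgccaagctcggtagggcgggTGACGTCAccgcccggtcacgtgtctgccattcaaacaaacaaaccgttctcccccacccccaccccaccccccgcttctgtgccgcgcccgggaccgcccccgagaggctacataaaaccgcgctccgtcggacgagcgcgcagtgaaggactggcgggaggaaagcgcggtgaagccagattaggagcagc
Rgs2: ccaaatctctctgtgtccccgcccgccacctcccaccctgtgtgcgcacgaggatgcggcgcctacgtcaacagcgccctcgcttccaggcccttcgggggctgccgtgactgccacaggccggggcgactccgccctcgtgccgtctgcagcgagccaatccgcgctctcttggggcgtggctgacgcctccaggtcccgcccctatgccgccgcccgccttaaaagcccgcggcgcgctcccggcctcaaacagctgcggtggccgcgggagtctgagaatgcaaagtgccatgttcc
Egr2: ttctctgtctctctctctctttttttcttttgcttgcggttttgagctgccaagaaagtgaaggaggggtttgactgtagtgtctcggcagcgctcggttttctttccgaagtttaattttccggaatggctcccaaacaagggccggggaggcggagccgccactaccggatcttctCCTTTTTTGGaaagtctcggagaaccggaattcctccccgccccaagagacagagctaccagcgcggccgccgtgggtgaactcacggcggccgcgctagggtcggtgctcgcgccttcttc

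Costimulatory and regulatory receptors also differed. Of 17 members of the CD28 family and inhibitory receptors, 2 rose (Nt5e and Cd28) and 1 fell (Cd160), with a median of 0.46. The shares of all genes tested were 0.456% called higher and 0.199% called lower. Nt5e, which encodes the ectonucleotidase CD73, was at 109, 106, 102 and 108 CPM in mLN and at 29.3, 29.8, 33.4 and 19.9 in spleen, with almost no spread in mLN (SD 3.16). Its fold change was 3.77 (log2 1.92, SE 0.25, edgeR adjusted p = 0.000391). Cd28, the main costimulatory receptor of T cells, was at 957, 736, 618 and 561 CPM in mLN and at 403, 549, 332 and 329 in spleen (log2 fold change 0.83, SE 0.14, edgeR adjusted p = 0.00464). Icos was at 406 ± 77.3 and 294 ± 64.4 CPM (edgeR adjusted p = 0.177). Cd200, which encodes the ligand of an inhibitory receptor, was separated upward at 3.11, 36.9, 28.7 and 16.6 CPM in mLN against 2.27, 0.150, 1.25 and 1.02 in spleen (log2 fold change 4.21, SE 0.90, edgeR adjusted p = 0.0193). Pdcd1 (PD-1) was at 9.84 ± 6.69 and 3.17 ± 3.19 CPM (edgeR adjusted p = 0.321) and Ctla4 at 9.60 ± 4.67 and 1.99 ± 0.862 (edgeR adjusted p = 0.303). Of 18 TNF receptor superfamily members and ligands none was called. Tnfsf11, which encodes RANKL, was separated upward at 17.002 ± 5.83 against 3.61 ± 2.66 CPM (edgeR adjusted p = 0.0685).

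Izumo1r, Nt5e and Nrp1 are also carried by regulatory T cells. Of 6 markers of these cells all were detected in both tissues and none was called. Separated upward were 2 of the 6, against 3.04% of all genes tested. Gpr83 was at 3.11, 11.8, 8.95 and 9.25 CPM in mLN and at 0.494, 0, 0 and 0 in spleen (edgeR adjusted p = 0.031), and Ikzf4 at 34.1, 17.1, 16.02 and 7.51 against 0.691, 1.95, 1.99 and 4.47 (edgeR adjusted p = 0.046). Foxp3, the factor that defines these cells, was at 0, 33.95, 4.16 and 4.24 CPM in mLN and at 0.987, 0.301, 1.495 and 2.24 in spleen (edgeR adjusted p = 0.245). It was high in mLN replicate 2 and at 0 in mLN replicate 1, the library with the highest Ikzf4. Lrrc32 had 43 counts in mLN and 1 in spleen, a ratio of 44.9 with a 95% exact interval of 7.65 to 1816 (edgeR adjusted p = 0.529). The median log2 fold change of the 6 was 3.15, with 4 above 0, against 0.000304 over all genes tested. Their summed level, mostly from Ikzf2 and Il2ra, was 318 to 500.3 CPM in mLN and 373 to 503 in spleen, and their part in the results for Izumo1r, Nt5e and Nrp1 was not tested. Nrp1, which encodes neuropilin-1, a receptor seen on recent thymic emigrant iNKT cells and on regulatory T cells, rose from 23.7, 18.5, 16.7 and 10.98 CPM in spleen to 60.4, 79.7, 113 and 55.9 in mLN (log2 fold change 2.18, SE 0.31, edgeR adjusted p = 0.00124).

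By number, receptors of natural killer cells were the list with most genes called lower in mLN. Of 25 tested, 5 fell (Klrk1, Klrc1, Klrc2, Klrb1c and Cd160), none rose, 7 were separated downward and the list median was −1.03. By share, the red cell list was higher (3 of 5). Over all genes tested, 0.199% were called lower. Klrk1, which encodes the activating receptor NKG2D, was at 25.4, 32.8, 28.5 and 36.4 CPM in mLN and at 120.2, 85.7, 119 and 78.1 in spleen. The spleen level was 3.27-fold higher (log2 −1.71, SE 0.19, edgeR adjusted p = 0.000102). Klrc1, which encodes the inhibitory receptor NKG2A, was at 18.02, 8.56, 7.70 and 6.74 CPM in mLN and at 44.4, 28.7, 72.3 and 49.6 in spleen (log2 −2.21, SE 0.36, edgeR adjusted p = 0.00342). Klrc2, which encodes NKG2C, was at 51.9, 20.9, 6.03 and 14.8 CPM in mLN and at 119, 77.1, 81.2 and 76.1 in spleen (log2 −2.05, SE 0.34, edgeR adjusted p = 0.0042, between −2.63 and −1.73 with 1 library left out). For both Klrc genes mLN replicate 1 was the highest of its tissue. They are near-identical copies, so that the split of reads between them is uncertain. Their partner Klrd1 (CD94) was separated downward at 9.14 ± 4.47 against 25.1 ± 7.03 CPM without being called (edgeR adjusted p = 0.0339).

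Klrk1, Klrc2 and Klrc1 are neighbours on chromosome 6, from 129610323 to 129678973, on the minus strand, and Klrb1c lies on the same strand from 128778485 to 128789215. Klrb1c, which encodes NK1.1, was at 174, 184, 140.02 and 193 CPM in mLN and at 247, 359, 339 and 307 in spleen (log2 fold change −0.86, SE 0.16, edgeR adjusted p = 0.0066). Cd160, a receptor for HVEM on NK cells and cytotoxic T cells, was at 61.5, 62.5, 38.7 and 35.6 CPM in mLN and at 97.4, 147, 133 and 132 in spleen (log2 fold change −1.38, SE 0.22, edgeR adjusted p = 0.00331). Klrg1 was separated downward at 2.18 ± 1.21 against 7.42 ± 1.99 CPM (edgeR adjusted p = 0.409). The 7 markers of NK cells themselves summed to 3.05 to 13.7 CPM in mLN and 12.5 to 22.1 CPM in spleen, with 2 of the 7 at 0 in each tissue. None of the 4 that were tested was called, with a median log2 fold change of −1.72 and a range of −2.32 to −1.17. The part of NK cells in the results for the receptors was not tested. The defining markers Ncr1, which was at 0 in mLN and at 1.02 CPM or less in spleen, and Eomes, which was at 1.596 CPM or less in mLN and 0 in spleen, were at or near 0.

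A chain of each of the IL-12 and IL-18 receptors fell, and 1 chain of the interferon-γ receptor rose. Of 13 genes of IL-12, IL-18 and interferon-γ signalling tested, 2 fell (Il18rap and Il12rb2), 1 rose (Ifngr2) and 10 were not called, with a median of −0.24. The shares of all genes tested were 0.199% called lower and 0.456% called higher. Il18rap, the accessory chain of the IL-18 receptor, was at 127, 89.8, 52.2 and 63.2 CPM in mLN and at 222, 174, 149 and 179 in spleen (log2 fold change −1.17, SE 0.18, edgeR adjusted p = 0.00201). Its partner Il18r1 was at 185.5 ± 73.9 and 216.5 ± 70.1 CPM (edgeR adjusted p = 0.618). Il12rb2, the signalling chain of the IL-12 receptor, was at 104, 58.8, 42.2 and 56.1 CPM in mLN and at 138, 129, 116 and 139 in spleen. The mLN values were more spread than those of spleen (SD 26.8 and 10.6), with replicate 1 highest, and the log2 fold change was −1.03 (SE 0.19, edgeR adjusted p = 0.00796). Ifngr2 rose from 4.05, 2.55, 0.997 and 1.83 CPM in spleen to 28.7, 16.4, 15.6 and 8.09 in mLN (log2 fold change 2.85, SE 0.53, edgeR adjusted p = 0.00694). It was low in spleen, with 71 counts over the tissue, and was called in none of the fits with 1 library left out. With the mLN and spleen libraries alone its edgeR adjusted p was 0.0217. The ligand-binding chain Ifngr1 was at 71.1 ± 17.04 and 92.3 ± 27.9 CPM (edgeR adjusted p = 0.579). Il1r1 and Il18rap, which moved in opposite directions, lie within the same interval of chromosome 1, from 40225080 to 40551705.

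Of 16 cytokine and chemokine genes tested, Ccl5 fell and none rose, with a median of −0.25. The shares of all genes tested were 0.199% called lower and 0.456% called higher. Ccl5, a chemokine of effector and memory T cells, was at 55.8, 47.4, 44.1 and 70.9 CPM in mLN and at 74.8, 114, 232 and 199.5 in spleen, where both First batch libraries were above both Second batch libraries (log2 fold change −1.40, SE 0.24, edgeR adjusted p = 0.00529). Ifng was at 15.1 ± 12.8 and 17.5 ± 3.41 CPM (edgeR adjusted p = 0.853). Of 20 cytotoxic granule genes, Lyst, which regulates lysosome size and granule secretion, fell from 659 ± 90.8 to 389.97 ± 50.4 CPM (log2 fold change −0.75, SE 0.14, edgeR adjusted p = 0.00922), none rose and the median was −0.05. Gzma was at 0, 1.31, 2.91 and 0.193 CPM in mLN and at 10.1, 12.6, 11.2 and 8.95 in spleen (edgeR adjusted p = 0.0116). With the replicate block its adjusted p was 0.009321, which called it. Prf1, which encodes perforin, was at 5.29 ± 4.74 and 15.1 ± 8.37 CPM (edgeR adjusted p = 0.347) and Fasl at 55.3 ± 11.01 and 82.0 ± 5.86 without overlap (edgeR adjusted p = 0.217).

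**Figure D3:**
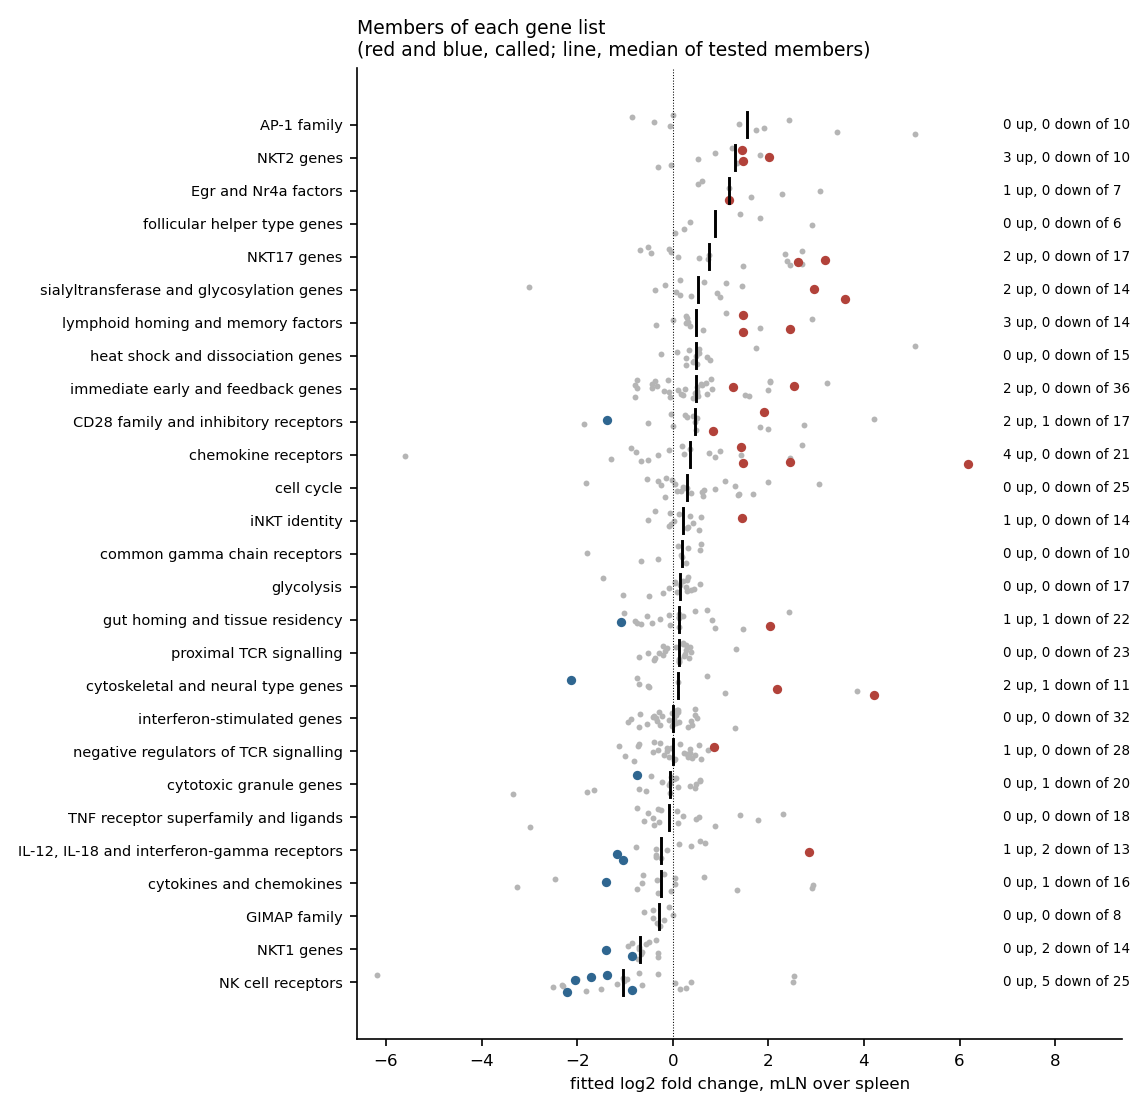
Fitted log2 fold change of mLN over spleen (horizontal axis) of the tested members of 27 gene lists, ordered by list median (black line); coloured points are called genes and grey points are not, with the counts at the right. The NK cell receptor and NKT1 lists lie lowest, with medians of −1.03 and −0.69. The AP-1 family, NKT2 and Egr and Nr4a lists lie highest, with medians of 1.56, 1.30 and 1.17. All lists were chosen with earlier results of these data known.

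Other called genes with large changes were mostly surface, signalling and cytoskeletal genes. Map2, a microtubule-associated protein best known from neurons, was at 6.61, 11.3, 6.24 and 14.3 CPM in mLN and at 0.197, 0, 0.748 and 1.42 in spleen (log2 fold change 4.20, SE 0.76, edgeR adjusted p = 0.0066, between 3.75 and 5.03 with 1 library left out). Ttn, the giant muscle protein titin, went the other way, from 62.8 ± 13.6 CPM in spleen to 14.6 ± 5.57 in mLN (log2 fold change −2.14, SE 0.41, edgeR adjusted p = 0.00922, and 0.01279 with the replicate block). Per transcript length Ttn was low, with a mean of 0.9975 TPM in spleen and 0.2275 in mLN, against 5.93 for Map2 in mLN. Map2, Ttn and Nrp1 were the 3 called of 11 cytoskeletal and neural type genes tested, and the list median was 0.10. The share called in either direction was 0.654% of all genes tested. Ephx1, the microsomal epoxide hydrolase, was at 75.1, 131, 115 and 78.8 CPM in mLN and at 12.5, 8.57, 16.7 and 23.2 in spleen (log2 fold change 2.75, SE 0.31, edgeR adjusted p = 0.000102). Rgs10, like Rgs2 a regulator of G protein signalling, rose from 12.9 ± 4.19 to 68.8 ± 27.5 CPM (log2 fold change 2.41, SE 0.33, edgeR adjusted p = 0.000761). Igfbp4, a binding protein of insulin-like growth factors, rose from 11.1 ± 2.51 to 55.0 ± 21.7 CPM (log2 fold change 2.33, SE 0.33, edgeR adjusted p = 0.00124), and the receptor gene Igf1r rose with a log2 fold change of 1.89 (edgeR adjusted p = 0.0097). Treml2 rose from 10.1 ± 6.06 to 55.9 ± 11.8 CPM (log2 fold change 2.45, SE 0.40, edgeR adjusted p = 0.00331) and Endod1 from 10.53 ± 7.16 to 54.7 ± 14.3 (log2 fold change 2.53, SE 0.40, edgeR adjusted p = 0.00315).

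Further genes that rose encode regulators of signalling. Skil, which represses SMAD proteins, rose with a log2 fold change of 1.65 and Tgfbr3, the TGF-β co-receptor betaglycan, with 1.98 (edgeR adjusted p = 0.000102 and 0.00464). Ski, a relative of Skil, rose with 1.04 and Smurf2, a ubiquitin ligase, with 0.96 (edgeR adjusted p = 0.00567 and 0.00663), and neither was called with the replicate block (adjusted p = 0.01052 and 0.01159). Rasa1, which turns off Ras, was the 1 of 28 negative regulators of TCR signalling that was called, at 196 ± 27.9 CPM in mLN and 111 ± 39.3 in spleen (log2 fold change 0.87, SE 0.16, edgeR adjusted p = 0.00638, and 0.01052 with the replicate block). In that list Dok2 was at 37.7 ± 16.1 and 62.7 ± 8.14 CPM (edgeR adjusted p = 0.0959) and Cd5 at 95.7 ± 27.2 and 55.9 ± 14.6 (edgeR adjusted p = 0.068), with a list median of −0.00123. The share called in either direction was 0.654% of all genes tested.

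Downward, H2-Q7, a class Ib MHC gene whose product is part of Qa-2, was at 639, 388, 340.4 and 445 CPM in mLN and at 1521, 865, 802 and 1060.2 in spleen (log2 fold change −1.23, SE 0.19, edgeR adjusted p = 0.00274). It has near-identical copies in the H2-Q cluster of chromosome 17, so that its own level is uncertain. Dock5, an activator of Rac, fell from 97.2 ± 10.8 to 32.03 ± 17.3 CPM (log2 fold change −1.68, SE 0.31, edgeR adjusted p = 0.00694, and 0.01279 with the replicate block). Abcb1a, which encodes the efflux pump P-glycoprotein, fell from 73.0 ± 15.9 to 26.7 ± 6.71 CPM (log2 fold change −1.44, SE 0.25, edgeR adjusted p = 0.0048), and Gramd3 from 119.7 ± 30.6 to 42.1 ± 6.63 (log2 fold change −1.496, SE 0.24, edgeR adjusted p = 0.00315). Gm38118, annotated as a transcript still to be checked by experiment, within the span of Hsd11b1 and Lamb3, fell from 26.6 ± 13.5 to 4.56 ± 1.10 CPM (log2 fold change −2.46, SE 0.43, edgeR adjusted p = 0.00538). The phosphodiesterase gene Pde7a fell with a log2 fold change of −1.19 (edgeR adjusted p = 0.00124), and Lpar6, Dennd4a, Peak1, Tex2, Gbp4 and Nedd4 fell by 0.90, 0.94, 0.86, 0.85, 0.75 and 0.73 on the log2 scale.

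The remaining genes that rose did so by between 0.63 and 1.998 on the log2 scale. They included F2rl1 (1.998), a protease-activated receptor, Kcnn4 (1.80), a calcium-activated potassium channel, Epas1 (1.65), which encodes HIF-2α, Dtx4 (1.55), Tbc1d4 (1.36), Scd2 (1.24), Ctss (1.15), which encodes cathepsin S, and Timp2 (1.09). Further down came Nap1l1 (0.85), Nup153 (0.78), Elk4 (0.72), a partner of serum response factor, and Ssh2 (0.63). Of the 89 genes, 84 were protein coding, and the span of 29 met that of another tested gene. Among the others the antisense gene 9530036M11Rik (log2 fold change 1.71) overlaps Chn2, and the lincRNA genes Gm26809 and Gm20186 (0.67 and 0.79) overlap each other on opposite strands, so that their reads cannot be told apart without strand.

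The block by replicate number gave 70 called genes, of which 65 were among the 89. The 24 that it lost had adjusted p-values between 0.01014 and 0.01828 and the same direction. Besides Il1r1, Dusp1, Ccr7, Rasa1, Zfp683, Dock5 and Ttn, given above, they were Igf1r, Nsg2, 9530036M11Rik, Ctss, Timp2, Ski, Smurf2, Gm12840, Ttc3, Nap1l1, Rcc2, Atl3, Nup153, Ssh2, Gbp4, Tex2 and Lpar6. Within each batch alone, where 2 libraries faced 2, no gene was called in either (edgeR), with 1145 genes at an unadjusted p under 0.05 in the First and 1437 in the Second batch. The log2 fold change had the same sign as in the fit of both batches for all 88 called genes with a value in the First batch and all 89 in the Second. These genes were chosen with both batches in the fit, so this is a description.

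Lists without a called gene covered several processes. Among 32 interferon-stimulated genes the median was 0.00373, and among 23 genes of proximal TCR signalling it was 0.13, with Txk at 288 ± 88.6 CPM in mLN and 472 ± 145 in spleen (edgeR adjusted p = 0.028) and Lat at 137 ± 24.6 and 180.3 ± 28.7 (edgeR adjusted p = 0.284). Among 25 cell cycle genes the median was 0.31, with Mcm6, part of the replicative helicase, separated upward at 79.0 ± 17.8 against 42.95 ± 8.05 CPM (edgeR adjusted p = 0.0384). Among 17 glycolysis genes it was 0.14, with the glucose transporter gene Slc2a3 separated downward at 82.9 ± 19.1 against 168 ± 7.20 CPM (edgeR adjusted p = 0.0162). The 8 GIMAP genes had a median of −0.29, the 10 common γ chain receptor genes 0.18 and the 6 follicular helper type genes 0.89. Il2rb, the IL-15 receptor β chain, was at 854 ± 127 and 1383 ± 422 CPM (edgeR adjusted p = 0.0741), and Il7r at 603 ± 131 and 490 ± 52.2 (edgeR adjusted p = 0.486).

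Red cell genes gave the largest differences among the called genes. Hbb-bs, a β-globin gene, was at 27.1, 47.04, 65.8 and 15.1 CPM in spleen and had no count in the 4 mLN libraries, against 926 counts in spleen. With a floor of 3 counts over the mLN group, it was at least 295-fold higher in spleen. Hba-a2, an α-globin gene, had 296 counts in spleen and none in mLN and was at least 94.4-fold higher in spleen, and Hbb-bt had 285 counts against 1, a ratio of 273 with a 95% exact interval of 48.5 to 10807. Their edgeR adjusted p-values were 0.00124, 0.00922 and 0.0097. Hbb-bs was called in each of the fits with 1 library left out, and Hba-a2 and Hbb-bt in none of them. In those fits the log2 fold change lay between −9.66 and −8.73 for Hba-a2 and between −8.89 and −6.95 for Hbb-bt. The globin pairs are near-identical, and reads may be split between them. The 7 red cell markers matched summed to 24.2 to 118 CPM in spleen and 0.624 to 2.31 CPM in mLN, where 4 of them were at 0. Preparation and tissue cannot be told apart here either.

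Markers of other cells were examined although the sort for TCRβ+ cells negative for B220, CD11b, CD11c and CD8 is meant to remove B cells, myeloid cells, CD8 T cells, γδ T cells and stroma. B cell markers summed to 194 to 326 CPM in mLN and 242 to 797 CPM in spleen, where replicate 1 was highest, and Cd22 and Ms4a1 were at 30.6 and 31.2 CPM in that library against 7.36 CPM or less in the other 7. No B cell marker was called among 12 tested. Macrophage and monocyte markers summed to 136 to 204 CPM in mLN and 201 to 301 CPM in spleen, mostly through Ccr2, and neutrophil markers to 0.145 to 1.69 and 0.498 to 6.12 CPM. Dendritic cell markers, mostly Ccr9, summed to 232 to 457 CPM in mLN and 159 to 266 in spleen, CD8 genes to 2.12 to 8.30 and 1.99 to 11.7, and genes of immature thymocytes to 6.09 to 17.7 and 11.6 to 46.1. Platelet markers reached 0.725 CPM in mLN and 4.81 in spleen, with 4 of 5 at 0 in mLN. The γδ T cell constant genes and their partners summed to 433 to 981 CPM in mLN and 373 to 607 in spleen, and none was called. Stroma and endothelium markers summed to 82.2 to 117 CPM in mLN and 51.8 to 71.5 in spleen, with 11 of 14 at 0 in mLN and 9 in spleen. Except where stated, the part of these cells in the results was not tested.

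Against the inguinal lymph node (iLN), of which 3 libraries from mice of the same genotype and age and the same sort and digestion were used, 64 genes of 13600 differed from mLN (0.471%). Of the 89 genes, 9 did so (Sdc1, Itga4, F2rl1, Igf1r, Dtx4, Slamf6, Ssh2, Pde7a and Klrk1). Itga4 was at 158 ± 44.8 CPM in iLN (SD, n = 3), below mLN by a log2 difference of 1.37 (SE 0.23, edgeR adjusted p = 0.00372). Klrk1 was at 88.1 ± 23.7 CPM in iLN, so that mLN was lower than it by 1.52 on the log2 scale (edgeR adjusted p = 0.000328). Slamf6 was at 32.4 ± 10.6 CPM in iLN and Dtx4 was also lower there, with log2 differences of mLN over iLN of 2.57 and 2.93 (edgeR adjusted p = 6.21e-05 for both). Sdc1 was higher in iLN, at 98.2 ± 41.2 CPM (log2 difference −2.78, edgeR adjusted p = 0.0067). Thymus and iLN are compared with the same spleen libraries, so their values are only set beside those of mLN. Klrk1 was at 273 CPM in thymus on average and Klrc2 at 182, Ccr8 at 44.5 in thymus and 43.96 in iLN, Ccr7 at 6.96 and 24.2, and Itga4 at 73.4 and 158. In the single iLN libraries Ccr8 was at 55.8, 65.3 and 10.8 CPM.

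**Figure D4:**
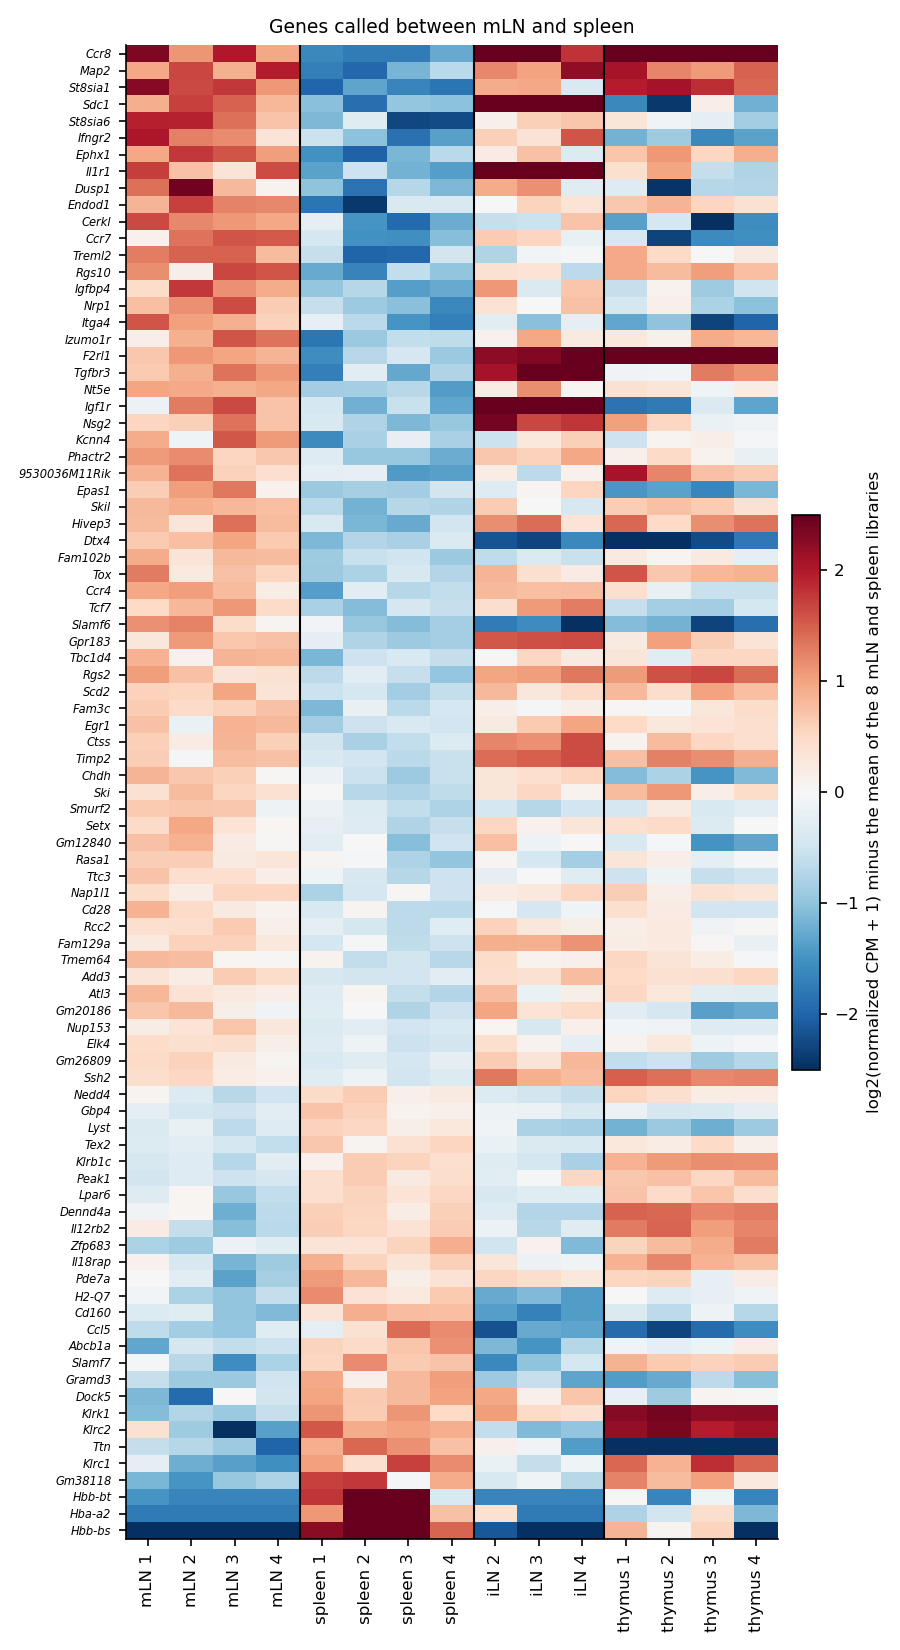
Level of the 89 called genes (rows, ordered by log2 fold change) in the 15 libraries (columns), as log2(normalized CPM + 1) minus the mean of the 8 mLN and spleen libraries, with colours limited at 2.5 on either side. The mLN and spleen columns are opposite by the choice of the genes. The iLN columns are darker than mLN for Sdc1, Il1r1, F2rl1, Igf1r, Tgfbr3, Gpr183 and Timp2 among others, and for Ccr8 in iLN 2 and iLN 3 only. The thymus columns are high for Klrk1 and Klrc2, and also for genes called higher in mLN, such as Ccr8, F2rl1, Ssh2 and Rgs2, where they exceed mLN.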

How the data were processed

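RNA of sorted iNKT cells was sequenced from mLN (4 libraries), spleen (4), iLN (3) and thymus (4). Per the study's methods, the authors trimmed reads with cutadapt and quantified them with RSEM and Bowtie2 against GRCm38.p6, after a NuGEN Ovation Ultralow library preparation. The sample records give the versions as cutadapt 1.7.1, RSEM 1.2.31 and Bowtie2 2.2.9. Mitochondrial ribosomal RNA took 16.21% to 21.3% of the counts in mLN and 12.42% to 19.96% in spleen. The deposited expected counts are RSEM's estimates, in which reads that match several genes are shared between them, and the deposited TPM values, made by the authors with the same program, are scaled for gene length and were used here only to compare levels between genes. The annotation release and strand setting are not given in the sources used here. Of 48795 gene IDs, 48435 matched GENCODE M21, which gave names and coordinates.

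Expected counts were rounded and tested in R 4.3.3 with edgeR 4.0.16 (quasi-likelihood, robust) on all 15 libraries with tissue and batch as factors, after filterByExpr on tissue and TMM. Adjusted p-values are Benjamini-Hochberg values over the 13600 genes kept. The SE of a log2 fold change was its size divided by the square root of F. Self-tests ran on simulated counts before the fits. No 2 libraries agreed within sampling noise. Precision was limited by 4 libraries a tissue and by totals of 4740370 to 8670570 counts, and intervals and floors of 3 counts cover counting error only.

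The members and lists were chosen with earlier results of these data known. Genes described in full were the called genes within the lists and the 15 largest changes in each direction among called genes that averaged 5 CPM or more in the higher tissue and kept 1 direction in all 4 replicate numbers. Uncalled examples were the first members of a list as written or those with the smallest p. Deviations of same-numbered mLN and spleen libraries from their tissue means correlated over 8323 genes (r = 0.213, 0.191, 0.369 and 0.291). Differently numbered libraries of the same batch gave r of 0.165, 0.154, 0.327 and 0.292. After removal of the batch means r of the same-numbered libraries was 0.0368 and 0.0466, so little was left that the number alone would share. The replicate number, which the titles give, was also fitted as a block, as an alternative. Alternatives were DESeq2 1.42.0, RLE scaling, other filters, other factors, thinning, removal of ribosomal RNA genes, single batches and leaving out libraries. Some genes are not reported here.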

Additional observations from a re-analysis of the deposited data

Results flagged for a closer look

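Among 94 sets of 4 libraries (48 genes in mLN or spleen), 4 had 1 library far from the others by Dixon's criterion, which chance gives in about 1 of 20 sets. Sdc1 was at 0.451 CPM in spleen replicate 2 and at 1.58 to 1.74 in the other spleen libraries. Klrc2 was at 119 CPM in spleen replicate 1 and at 76.1 to 81.2 in the others. Klrc1 was at 18.02 CPM in mLN replicate 1 and at 6.74 to 8.56 in the others. Hbb-bt was at 0.130 CPM in mLN replicate 1, a single count, and at 0 in the others.

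The difference from spleen was not the same in the 2 lymph nodes for 4 of these 48 genes, by edgeR's test of mLN against iLN. The log2 difference of mLN over iLN was −2.78 for Sdc1 (adjusted p = 0.0067), 1.37 for Itga4 (adjusted p = 0.00372), 2.57 for Slamf6 (adjusted p = 6.21e-05) and −1.52 for Klrk1 (adjusted p = 0.000328). Sdc1 was thus higher in both lymph nodes than in spleen, and more so in iLN, while Slamf6 was highest in mLN, at 218 CPM against 77.0 in spleen and 32.4 in iLN.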

How the results depend on the processing

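The direction of the 89 genes was the same under each alternative that gave them a value, but their number depended on the setting. It was 248 (160 higher, 88 lower) by DESeq2, 273 (173 and 100) with no filter on low counts, 181 (121 and 60) at an adjusted p of 0.05, 29 (22 and 7) without the batch factor, 17 (12 and 5) with the mLN and spleen libraries alone and 0 (0 and 0) in each batch alone by edgeR, where 1145 and 1437 genes had an unadjusted p under 0.05. Without both libraries of number 3, chosen after seeing the data, it was 15 (13 and 2). With 1 library left out it lay between 24 and 59, between 18 and 43 upward and between 3 and 16 downward. All 89 were also called by DESeq2, 16 with the mLN and spleen libraries alone and 29 without batch, and the cause of these changes was not tested. RLE scaling, thinning, removal of ribosomal RNA genes and a minimum of 10 counts in every library gave 92, 91, 88 and 93, and leaving out the shallowest thymus library, chosen after seeing the data, gave 76. The replicate block gave 70 (48 and 22), and among the named genes it changed no call besides those given above. Of the named genes, 3 reversed, none of them called. Ifng (−0.30) was at 0.12 in the Second batch alone. Il4 (−0.03) was at 0.24 in the First batch alone, and between −0.27 and 0.22 with 1 library left out. Itgb7 (0.12) was at −0.13 in the Second batch alone, at −0.045 without both libraries of number 3, and between −0.093 and 0.24 with 1 library left out. Depth limits most the genes under 5 CPM in the lower tissue, such as Ccr8 and the globin genes.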

Other observations

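Spleen replicate 1 held 2.25% of its counts in 9 predicted genes, chosen after their values were seen, against 0.00405% to 0.0407% in the other mLN and spleen libraries. Gm26870 was the highest of them, at 9762 CPM in that library and between 19.4 and 208 CPM in the other 7. The same genes took 0.331% of the counts of iLN replicate 3. None of the 9 was called between mLN and spleen (edgeR adjusted p between 0.3263 and 0.4122).

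The genes nearest to the threshold on the called side were Nap1l1, Gbp4 and Hbb-bt, with edgeR adjusted p-values of 0.009989, 0.009704 and 0.009704. On the other side came Igf2r, Hsp90ab1 and Lrig1 at 0.01024, 0.01045 and 0.01088.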
